A study of Mus musculus with 6 samples.

Results

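Ttr, Folr1, Kcnj13, Kl, Clic6, Enpp2, Sostdc1, F5, Otx2 and Aqp1 are 10 genes of the choroid plexus epithelium, and their levels were compared between the hippocampi of WT and TG mice. The genes were taken by symbol from the deposited table of 54532 genes. Each symbol matched 1 row, and all 10 were among the 20952 genes that entered the test. The symbols alone chose the genes, so no value of the table was used for the choice, although earlier results of these data were known when the list was made.

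The choroid plexus is a folded sheet of epithelium over a core of vessels and stroma that hangs into the ventricles of the brain. Its epithelial cells secrete the cerebrospinal fluid, moving ions and water across their apical membrane, and release carrier proteins and growth factors into it. The tissue lies next to the hippocampus along the choroid fissure but is no part of it.

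Hippocampal RNA was sequenced from 3 wild-type mice (WT1 to WT3) and 3 TG mice (TG1 to TG3), 1 library for each. The TG mice carried the G82R and L85P changes in exon 3 of Slc1a2, the gene of the glutamate transporter GLT-1, introduced by CRISPR/Cas9 knock-in into C57BL/6N eggs, with founders mated to C57BL/6 mice, and the WT mice were described as littermates. The labels call these knock-in mice transgenic, no cell type restricts the change, and the zygosity, sex and age of the sequenced mice were not given for each library in the sources used here. The comparison asked how the transcriptome of the hippocampus differed between the genotypes.

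The deposited values are FPKM, read counts scaled to the length of the gene and to the size of the library, so levels of different genes may be set side by side. Values are listed in the order of the replicate numbers. The 6 libraries held between 16081281 and 18751057 reads on genes, and for a gene of 1 kb a value of 0.160 to 0.190 stood for 3 reads. Slc1a2 itself stood at 202, 199.5 and 177 FPKM in WT and at 222, 207 and 217 FPKM in TG mice (limma, log2 difference 0.16, adjusted p = 0.789), and FPKM do not show which bases were read. Neurod6, a transcription factor of pyramidal neurons and the most abundant gene of the hippocampal list used below, stood at 71.5 to 91.0 FPKM over the libraries. This gene alone does not show which region was sampled. All 10 choroid plexus genes had reads in all 6 libraries.

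The RefSeq promoter table held start-site windows for 5 of the 10 genes, which were Kcnj13, F5, Kl, Aqp1 and, with several start sites, Otx2. Each window runs from 250 bases before to 50 bases after the start and is read on the strand of the gene in build GRCm38.p6. Windows of Ttr, Folr1, Clic6, Enpp2 and Sostdc1 were not used here. The windows below are shown because the genes had like patterns over the libraries and differ widely in these stretches. Capitals mark GGATTA, the reverse complement of the OTX motif TAATCC, in the Otx2 window, and the TATA box letters TATAAA in the Kcnj13 window, and the windows of Kl and Aqp1 held neither.
Kcnj13, chr1:87394680-87394979, minus strand: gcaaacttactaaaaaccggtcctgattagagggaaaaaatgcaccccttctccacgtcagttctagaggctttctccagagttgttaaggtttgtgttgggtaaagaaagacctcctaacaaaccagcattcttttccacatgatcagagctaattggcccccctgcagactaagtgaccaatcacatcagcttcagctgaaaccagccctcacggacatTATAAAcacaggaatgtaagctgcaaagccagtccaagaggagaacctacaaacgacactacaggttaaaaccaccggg
Otx2, chr14:48665060-48665359, minus strand: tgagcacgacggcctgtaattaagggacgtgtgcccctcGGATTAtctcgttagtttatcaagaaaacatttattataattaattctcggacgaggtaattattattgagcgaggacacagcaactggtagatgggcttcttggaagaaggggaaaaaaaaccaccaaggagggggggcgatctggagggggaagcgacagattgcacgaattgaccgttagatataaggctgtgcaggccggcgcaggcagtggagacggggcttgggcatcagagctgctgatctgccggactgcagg
Kl, chr5:150952357-150952656, plus strand: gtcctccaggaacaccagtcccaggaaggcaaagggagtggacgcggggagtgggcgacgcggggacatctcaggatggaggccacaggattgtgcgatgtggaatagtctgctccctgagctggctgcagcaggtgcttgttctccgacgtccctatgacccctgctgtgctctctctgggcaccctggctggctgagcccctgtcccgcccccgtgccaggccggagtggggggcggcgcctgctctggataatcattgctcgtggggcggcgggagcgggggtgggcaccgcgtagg
Aqp1, chr6:55336049-55336348, plus strand: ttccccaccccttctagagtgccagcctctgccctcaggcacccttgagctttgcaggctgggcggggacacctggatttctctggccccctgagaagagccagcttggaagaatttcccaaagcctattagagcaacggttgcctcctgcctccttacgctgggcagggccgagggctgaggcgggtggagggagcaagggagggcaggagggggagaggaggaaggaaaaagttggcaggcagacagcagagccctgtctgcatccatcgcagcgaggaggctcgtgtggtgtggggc

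TAATCC and TATAAA were searched on both strands, and no match of one overlapped a match of the other in the windows shown. Several of the 8 windows of the 5 genes belong to Otx2 and some of these overlap, so the windows are not separate genes. TAATCC occurred in 1 of the 8 windows, against 7.06% of the 32851 windows in the whole table. This match, in Otx2, began 211 bases before the start. TATAAA occurred in 2 of the 8 windows, against 13.6% of all windows. Of these matches, 1 began 29 bases before the start of Kcnj13, and the other lay in an Otx2 window not shown. In 56 windows of other choroid plexus genes, the shares were 7.14% and 12.5%. Over the 8 windows the GC content ran from 41.7%, in an Otx2 window not shown, to 67.3% in the Kl window, and the number of CpG from 4 in the F5 window to 19 in the Kl window, where the median window of the table had 52.7% and 7 CpG. These matches describe the letters of the windows and say nothing about binding.

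In all 10 genes the FPKM was highest in TG2, second in TG1 and lower in the other 4 libraries, and TG3 lay near the WT mice. Against the WT mean, the fold ran from 2.85 to 18.5 in TG1 (median 9.05) and from 7.02 to 58.7 in TG2 (median 23.9). In TG3 it ran from 0.557 to 1.75 (median 1.01). The order TG2 above TG1 above the other 4 libraries was found in 4.04% of the genes tested, and a level above 2-fold of the WT mean in both TG1 and TG2 in 1.7%. Both held for 10 of the 10 genes. The TG mice therefore did not share 1 level of these genes, and their SD on the log2 scale was above 1 for 10 of 10, against 7.25% of all genes tested.

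**Figure D1:**
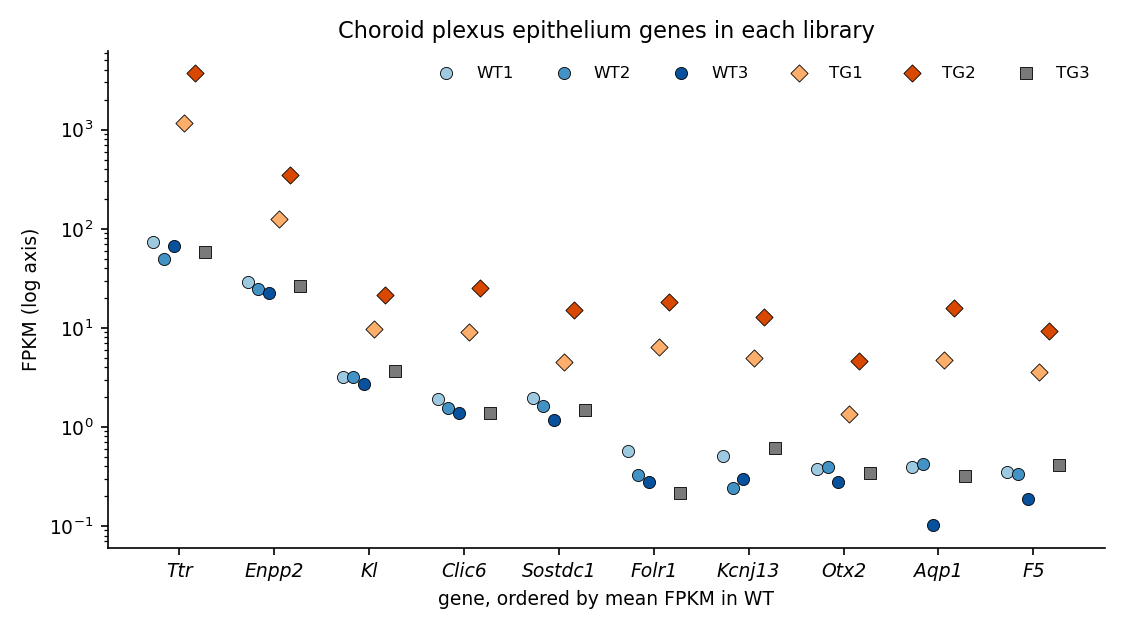
FPKM (log axis) of the 10 choroid plexus epithelium genes in each library, ordered by their mean in WT mice, with 1 point for each of the 3 WT and 3 TG libraries. TG2 is the highest point and TG1 the second for every gene, while TG3 sits within or close to the spread of the WT points, with folds of 0.557 to 1.75 of the WT mean.

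Ttr, Enpp2, Sostdc1 and F5 encode secreted proteins, and Ttr and Enpp2 had the highest levels of the 10 genes. Ttr (ENSMUSG00000061808, chromosome 18 from 20665250 to 20674324) encodes transthyretin, which carries thyroid hormone and retinol-binding protein in the cerebrospinal fluid. Its FPKM was 73.0, 49.8 and 66.6 in WT mice and 1168, 3705 and 57.7 in TG mice. The value in TG2 rested on 80974 reads and that in TG3 on 1271. Ttr had the largest fold of the WT mean in both TG1 (18.5) and TG2 (58.7), whereas TG3 lay within the WT range.

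Enpp2 (ENSMUSG00000022425, chromosome 15 from 54838901 to 54952892) encodes autotaxin, the secreted enzyme that makes lysophosphatidic acid, and oligodendrocytes express it as well. Its FPKM was 29.1, 24.9 and 22.2 in the WT mice and 124, 351 and 26.3 in the TG mice. Sostdc1 (ENSMUSG00000036169, chromosome 12 from 36314139 to 36318452), a secreted antagonist of BMP and Wnt signals, had an FPKM of 1.97, 1.63 and 1.17 in WT and 4.54, 15.1 and 1.49 in TG mice. F5 (ENSMUSG00000026579, chromosome 1 from 164151838 to 164220277), the gene of coagulation factor V, had an FPKM of 0.349, 0.333 and 0.187 in WT and 3.60, 9.32 and 0.410 in TG mice. TG1 and TG2 lay above all WT mice for these 3 genes, and TG3 lay inside the WT range for Enpp2 and Sostdc1 and just above it for F5, where 55 reads stood against 26 to 48 in WT mice.

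The channels had low levels in WT mice. Kcnj13 (ENSMUSG00000079436, chromosome 1 from 87386363 to 87394729) encodes the inward rectifier potassium channel Kir7.1 of the apical membrane, and its FPKM was 0.511, 0.244 and 0.294 in WT and 4.98, 12.96 and 0.610 in TG mice. Aqp1 (ENSMUSG00000004655, chromosome 6 from 55336432 to 55348555) encodes the water channel of that membrane, and its FPKM was 0.391, 0.424 and 0.102 in WT and 4.76, 15.97 and 0.316 in TG mice. Clic6 (ENSMUSG00000022949, chromosome 16 from 92485736 to 92541243), a member of the chloride intracellular channel family, had an FPKM of 1.91, 1.55 and 1.38 in WT and 9.17, 25.1 and 1.39 in TG mice. The WT values of Aqp1 rested on 19, 18 and 5 reads and those of Kcnj13 on 12, 5 and 7, so their folds are less precise than those of Clic6, with 98 to 138 reads. TG3 lay above the WT range for Kcnj13, with 14 reads, and inside it for Aqp1 and Clic6.

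Folr1 and Kl encode receptors. Folr1 (ENSMUSG00000001827, chromosome 7 from 101858331 to 101870788), the folate receptor that carries folate into the cerebrospinal fluid, had an FPKM of 0.565, 0.323 and 0.279 in WT and 6.44, 18.4 and 0.217 in TG mice. It was the 1 gene for which TG3 lay below the WT range, with 9 reads against 12 to 24. Kl (ENSMUSG00000058488, chromosome 5 from 150952607 to 150993817), the co-receptor klotho for FGF23, is also expressed by neurons. Its FPKM was 3.18, 3.19 and 2.73 in WT and 9.67, 21.3 and 3.67 in TG mice. Kl had the smallest fold of the WT mean in TG2 (7.02), and TG3 lay above the WT range with 618 reads against 476 to 548.

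Otx2 (ENSMUSG00000021848, chromosome 14 from 48657677 to 48673819) is the homeobox transcription factor required for choroid plexus development. Its FPKM was 0.372, 0.396 and 0.278 in WT mice and 1.35, 4.64 and 0.341 in TG mice, from 22 to 29 reads in WT and 90, 351 and 26 reads in TG. The antisense gene Otx2os1, which shares 5112 bases with Otx2, had at most 5 reads in WT mice, 8 and 12 reads in TG1 and TG2 and 0 reads in TG3, which at this depth allows up to 3. Nothing in the sources used here says whether strand was used in counting. That bears on Kcnj13 as well, all 8367 bases of which lie within Gigyf2 on the opposite strand (FPKM 4.17 to 5.65 over the libraries), and on Folr1, which shares 7074 bases with Anapc15 (1.30 to 1.58).

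The WT mice differed among themselves as well. WT1 held the highest WT level of 7 genes and WT2 that of 3, whereas WT3 held the lowest of 8. The share of all genes with such an order is not given here. In the lists described below, the medians of other choroid plexus, ependymal, fibroblast and oligodendrocyte genes also fell from WT1 to WT2 to WT3. Those of the remaining lists did not. In WT mice the levels were 63.1 ± 12.0 FPKM for Ttr, 25.4 ± 3.48 for Enpp2, 3.03 ± 0.263 for Kl, 1.61 ± 0.270 for Clic6 and 1.59 ± 0.404 for Sostdc1 (SD, n = 3). The other 5 lay between 0.290 for F5 and 0.389 for Folr1. The WT ranges of Clic6 and Sostdc1 overlapped, as did those of neighbours among the last 5, and the first 3 genes stood apart from each other and from the rest. The 10 genes together took 0.0246% to 0.0307% of the reads in WT mice, 0.230% in TG1, 0.715% in TG2 and 0.0273% in TG3. In bulk tissue, more or fewer cells of a type and more or less RNA per cell cannot be told apart.

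The genotypes were then compared with limma on log2(FPKM + 0.1) over all 20952 genes, where 3 TG mice stand against 3 WT mice. After Benjamini-Hochberg adjustment, 0 of the 10 genes passed a threshold of 0.05, against 0.00955% of all genes, and the adjusted p was 0.786 for each of the 10. At an unadjusted p under 0.05, 6 of 10 were higher in TG mice, against 3.13% of all genes, and 0 were lower, against 2.78%. From the smallest p (0.0138) to the largest (0.0397), these were Kcnj13 with a log2 difference of 3.05 (standard error 0.946), F5 with 2.77 (0.945), Kl with 1.56 (0.544), Aqp1 with 3.10 (1.21), Enpp2 with 2.05 (0.811) and Ttr with 3.34 (1.33). With voom on the reads in place of the FPKM, 3 of 10 passed that threshold, and the share of all genes under voom is not given here. The other 4, Folr1, Clic6, Sostdc1 and Otx2, had log2 differences of 1.54 to 2.83 and an unadjusted p between 0.0546 and 0.0686. Over the 10 genes the median log2 difference was 2.41, beside -0.00 over all genes tested, and a pseudocount of 0.1 makes the differences of the low genes smaller than their FPKM ratios.

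The test and the individual mice gave different pictures. The groups did not overlap for 3 of the 10 genes (Kcnj13, Kl and F5), against 6.35% of all genes tested, and these are the genes for which TG3 lay above the WT range. TG1 and TG2 lay above the other 4 libraries for 10 of 10, against 7.23%, and TG3 lay within the WT range for 6 of 10, against 54.9%. The difference between the group means therefore rested on TG1 and TG2. Taken alone against the 3 WT mice, TG3 had a median log2 difference of 0.02 over the 10 genes, an alternative added after the data were seen. The count of genes at an unadjusted p under 0.05 moved with each mouse. Without TG3 it was 10 of 10, against 2.82% of all genes, without WT1 it was 1, and without WT2, WT3, TG1 or TG2 it was 0. Of these fits, only the fit without TG3 has its share over all genes given here. The labels name 6 mice and no batch, and the p-values measure the spread between these mice alone.

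The ratios between genes were compared next, since each library then serves as its own scale. Per 1000 FPKM of Ttr, Enpp2 stood at 399, 499.8 and 333 in WT and at 107, 94.7 and 455 in TG mice. Kl stood at 43.5, 64.0 and 40.9 in WT and at 8.28, 5.74 and 63.5 in TG mice. Sostdc1 stood at 27.0, 32.8 and 17.5 in WT and at 3.89, 4.07 and 25.8 in TG mice. In TG1 and TG2 these genes were thus several times lower beside Ttr than in any WT mouse, while TG3 lay within the WT range for all 3. Clic6 (20.7 to 31.1 in WT, 7.85 in TG1, 6.78 in TG2, 24.0 in TG3) and Otx2 (4.18 to 7.96 in WT, 1.15, 1.25 and 5.91 in TG) followed the same pattern, and Kcnj13 lay slightly below its WT range in TG1 and TG2.

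Folr1, F5 and Aqp1 kept ratios in TG1 and TG2 that were not outside the WT range in both. Folr1 stood at 4.19 to 7.74 per 1000 FPKM of Ttr in WT mice and at 5.51 and 4.97 in TG1 and TG2. In TG3 it lay below the WT range, at 3.76. F5 stood at 2.80 to 6.70 in WT mice, at 3.08 and 2.52 in TG1 and TG2, and above the WT range at 7.10 in TG3. Aqp1 stood at 1.53 to 8.52 in WT mice, where its reads are few, at 4.08 and 4.31 in TG1 and TG2, and at 5.48 in TG3. A two-sided exact permutation test of 3 WT against 3 TG mice gave a p between 0.2 and 1 for the 9 ratios, and 0.54 to 1 after adjustment over them. Since 0.1 is the smallest p that 3 against 3 allows, no ratio could have passed 0.05, and the test does not show that the ratios were alike. The median log2 difference of the 9 ratios was -1.24, and with the geometric mean of the other 9 genes as the denominator it was -0.50.

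**Figure D2:**
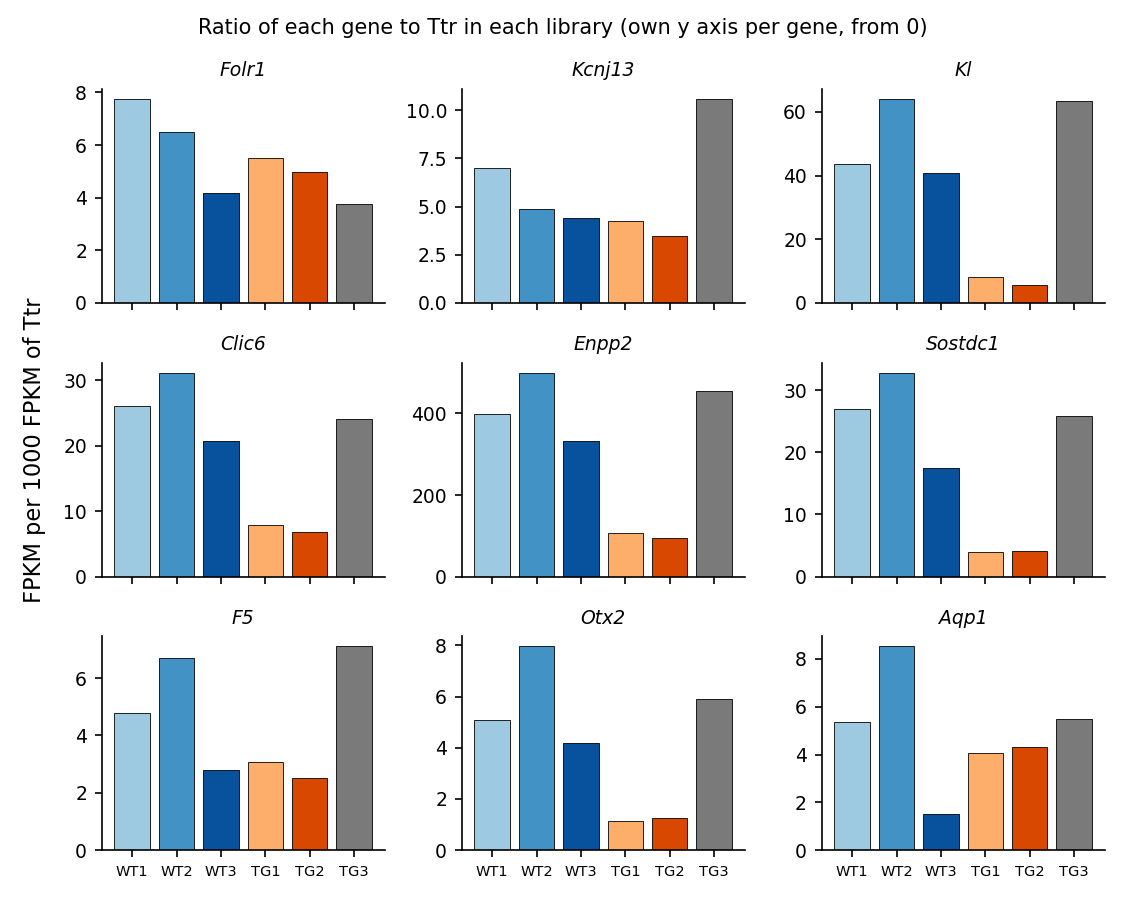
Ratio of each of 9 genes to Ttr (FPKM per 1000 FPKM of Ttr, own y axis for each gene starting at 0), with 1 bar for each library. In Kl, Clic6, Enpp2, Sostdc1 and Otx2 the bars of TG1 and TG2 are far lower than the WT bars and TG3 is among them. In Folr1 and Aqp1 the bars of TG1 and TG2 lie within the WT range. The bar of TG3 is above the WT bars in Kcnj13 and F5 and below them in Folr1.

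TG1 and TG2 resembled each other in these ratios more than they resembled the WT mice. Over the 45 pairs of the 10 genes, the log2 ratio differed between TG2 and TG1 by a median of 0.24 and at most 0.65. Between TG1 and the WT mean the median was 1.39 and between TG2 and the WT mean 1.31, with 25 and 26 pairs above 1. Between TG3 and the WT mean it was 0.48, with 5 pairs above 1. The median range from lowest to highest WT mouse was 0.68. A range is not a distance from the mean and tends to be larger, so it does not show how close TG3 was. Pairs share genes and are no replicates, so these are descriptions.

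Subtracting the WT mean from each TG library left an excess that had nearly the same makeup in TG1 and TG2. The excess in TG2 was 2.73 to 4.57 times that in TG1 (median 3.20), although the excess of Ttr in TG2 was 3642 FPKM and that of Otx2 4.29. The ratio was 3.30 for Ttr (95% interval 3.25 to 3.35), 3.29 for Enpp2 (3.20 to 3.37) and 3.11 for Clic6 (2.78 to 3.48). The intervals cover counting error alone, with 1 library on either side, and sequenced reads need not come from separate molecules. The intervals of Folr1 (2.55 to 3.48), Kcnj13 (2.14 to 3.47), Aqp1 (2.98 to 4.15) and Otx2 (3.16 to 5.84) held the value of Ttr too. Kl at 2.75 (2.52 to 2.99) and F5 at 2.73 (2.43 to 3.08) lay below the interval of Ttr, and Sostdc1 at 4.57 (3.41 to 6.12) lay above it. With TG3 in place of the WT mean as the baseline, the ratios ran from 2.80 to 4.45 with a median of 3.17.

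For part of the genes the makeup of the excess was unlike that of the WT mice. Per 1000 FPKM of Ttr excess, Enpp2 made up 89.7 in TG1 and 89.3 in TG2, against 402 FPKM per 1000 of Ttr in the WT mean. Kl made up 6.01 and 5.01 against 48.0 in WT, Clic6 6.84 and 6.46 against 25.5, and Sostdc1 2.67 and 3.70 against 25.2. Otx2 made up 0.904 and 1.18 against 5.52 in WT. For Folr1 (5.48 and 4.95 against 6.16), Aqp1 (4.04 and 4.30 against 4.84), Kcnj13 (4.19 and 3.46 against 5.54) and F5 (2.99 and 2.48 against 4.59) the excess and the WT mean were closer. Enpp2, Kl, Clic6, Sostdc1 and Otx2 thus stood higher beside Ttr in the WT mice than in the excess, and which cells hold their WT level was not tested.

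**Figure D3:**
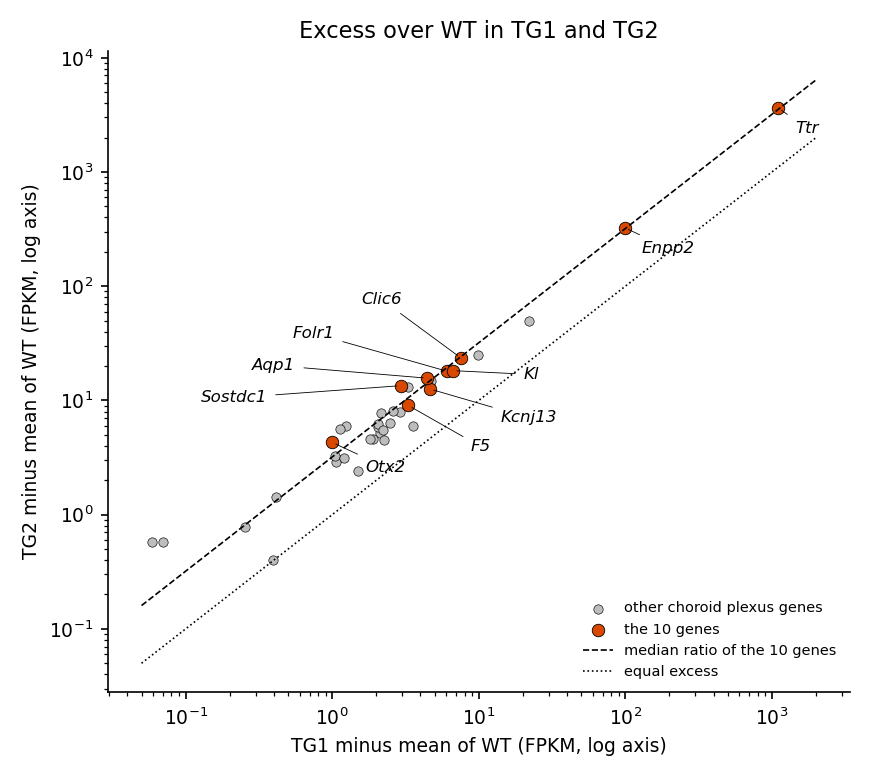
FPKM above the WT mean in TG2 against that in TG1 (both log axes) for the 10 genes (orange) and the other choroid plexus genes with more than 2-fold of the WT mean in TG1 (grey, 28 genes), with dashed and dotted lines for the median ratio of the 10 genes (3.20) and for equal excess. The 10 genes lie close to the dashed line over the whole span from Otx2 to Ttr, with ratios between 2.73 and 4.57.

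Other genes of the same epithelium were described from a list of 45, written with earlier results of these data known. All 45 passed the filter on the mean FPKM of the 6 libraries. Tmem72, Steap1, Slco1a5 and Lmx1a, with WT means of 0.038, 0.093, 0.043 and 0.042 FPKM, passed it only through the TG mice. Tmem72 and Steap1 are among the genes counted as higher. At an unadjusted p under 0.05, 20 of 45 were higher in TG mice, beside 3.13% of all genes, and 0 were lower, beside 2.78%. After adjustment 0 passed. The median log2 difference was 1.04 and 44 of 45 were above 0. The medians above the WT mean were 1.27 in TG1, 2.36 in TG2 and 0.04 in TG3 on the log2 scale, and 42 of 45 had the order TG2 above TG1 above the other 4 libraries, beside 4.04% of all genes. For the 28 genes above 2-fold of the WT mean in TG1, the excess in TG2 was a median of 2.78 times that in TG1 (quartiles 2.49 and 3.19, range 1.02 to 9.68). These genes were picked by their level in TG1, which enters the divisor of the ratio. The highest ratios, of Slco1a5 (9.68) and Lmx1a (8.37), rest on 6 reads each in TG1.

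Genes grouped under ion and solute transport made up 17 of the 45 genes. Of these, 7 were higher at an unadjusted p under 0.05, beside 3.13% of all genes. Slc4a5, a bicarbonate cotransporter, had an FPKM of 0.121, 0.160 and 0.166 in WT and 2.30, 7.92 and 0.134 in TG mice (limma, log2 difference 2.73, adjusted p = 0.786). The others were Steap1, Slc13a4, Slc16a8, Trpv4, Slc2a12 and Slc4a2, with log2 differences of 0.89 to 2.94. Slc13a4, a sulfate transporter also found in the meninges, stood apart with 4.67 FPKM in WT1 against 1.01 and 0.649 in WT2 and WT3. The most abundant members did not share the pattern to the same degree. Atp1b1, a sodium pump subunit of neurons as well, had an FPKM of 517 to 594 in WT and 496 to 561 in TG mice, and Slc5a5, the iodide symporter, 7.72 to 10.9 in WT and 9.19 to 11.4 in TG mice. Slc12a2, the sodium, potassium and chloride cotransporter, had 10.2 to 12.0 in WT mice and 12.4, 19.3 and 11.5 in TG mice.

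Among the 10 secreted and matrix genes, 6 were higher at an unadjusted p under 0.05, beside 3.13% of all genes. Ace, the angiotensin-converting enzyme, ranked first by p in the whole list, at 3.79, 2.18 and 2.07 FPKM in WT and 12.6, 27.9 and 4.41 FPKM in TG mice (limma, log2 difference 2.13, adjusted p = 0.786). The binding protein Igfbp2 had 11.8 to 18.8 in WT mice and 36.1, 63.5 and 18.5 in TG mice. Col8a1, Sulf1, Wfikkn2 and Col9a3 were the other 4, with log2 differences of 1.49 to 2.46. Of 8 junction and cytoskeleton genes 2 passed that threshold, which were Cldn2, a claudin of leaky epithelia (0.0745 to 0.325 FPKM in WT and 2.79, 8.32 and 0.233 in TG mice), and Cgnl1. Spint2 and Perp, abundant in this group, had 11.3 and 7.001 FPKM in TG2 against at most 5.24 and 3.08 in WT mice. All 8 had TG1 and TG2 above the other libraries, beside 7.23% of all genes.

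Of 4 receptors and transcription factors, Msx1, a homeobox gene, passed the unadjusted threshold, which 3.13% of all genes passed in the same direction. Its FPKM was 2.17 to 2.29 in WT and 4.43, 7.26 and 2.68 in TG mice. The serotonin receptor gene Htr2c, which neurons also express, had 4.73 to 5.49 in WT and 7.62, 10.3 and 4.73 in TG mice, and Prlr, the prolactin receptor, 0.226 to 0.324 in WT and 1.32, 3.53 and 0.249 in TG mice. Tmem72, Mdfic, Rdh5 and Vat1l passed it among the remaining 6 genes, and Cab39l had 3.87 to 4.82 FPKM in WT and 6.49, 10.1 and 4.27 in TG mice. The medians of every role repeated the order of the libraries seen in the 10 genes, with the median in TG2 between 1.92 and 3.01 above the WT mean on the log2 scale.

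Among markers of cells around the choroid plexus, TG2 lay above TG1 above the rest for 1 of 11 ependymal, 0 of 10 fibroblast, 2 of 8 endothelial and 1 of 7 border macrophage genes, beside 4.04% of all genes tested. For 11 ependymal genes the median above the WT mean was -0.16 in TG1, 0.62 in TG2 and -0.34 in TG3, and the summed FPKM was 14.5 to 19.6 in WT and 14.1, 25.97 and 12.6 in TG mice. Only Mia of the 12 listed ependymal genes was left out of the test, at 0 FPKM in the 3 TG mice and at most 0.0623 in WT mice. At an unadjusted p under 0.05, 3 of the 11 were lower in TG mice, beside 2.78% of all genes tested. Ccdc153 had a log2 difference of -0.68 (limma, adjusted p = 0.786). The most abundant, the ciliary regulator Foxj1, had 2.16 to 4.29 FPKM in WT and 3.78, 6.12 and 2.74 in TG mice. TG2, highest for the 10 genes, was thus also highest for the ependymal sum, and its part in the values of the 10 genes was not tested.

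The 10 genes of meningeal and choroid plexus stromal fibroblasts had medians of 0.44 in TG1, -0.10 in TG2 and 0.56 in TG3, with WT1 at 0.67, so they did not follow TG2. Their sum was 19.6 to 42.6 FPKM in WT and 25.8 to 33.7 in TG mice, and the matrix gene Dcn, the most abundant, had 7.86 to 14.1 in WT and 8.68 to 10.9 in TG mice. Endothelial genes had medians between -0.09 and 0.13 in the 6 libraries, with sums of 98.8 to 117 FPKM in WT and 108 to 116 in TG mice. Flt1 and Slco1c1, 2 of the 8 genes, were higher at an unadjusted p under 0.05, beside 3.13% of all genes. Their log2 differences were 0.24 and 0.46. Plvap, the marker of fenestrated vessels such as those of the choroid plexus, had an FPKM of 5.12, 4.27 and 5.65 in WT and 5.98, 7.16 and 4.12 in TG mice (limma, log2 difference 0.17, adjusted p = 0.841). Its order of the TG libraries was that of the 10 genes, and its part in their values was not tested. Border macrophage genes, with Pf4 the most abundant, had medians of 0.37, 0.18 and 0.48 in TG1 to TG3 and sums of 2.89 to 4.47 FPKM in WT and 4.16 to 4.81 in TG mice.

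In lists of brain tissue and blood, TG2 lay above TG1 above the rest for 0 of 8 oligodendrocyte, 0 of 8 hippocampal and 0 of 7 thalamic genes. The same held for 0 of 6 astrocyte and 0 of 5 red blood cell genes, beside 4.04% of all genes tested. At that share a list of 5 to 8 genes would mostly hold none. Oligodendrocyte genes had medians of -0.65 in TG1, -0.11 in TG2 and -0.08 in TG3, with sums of 441 to 550 FPKM in WT and 352, 489 and 521 in TG mice. Opalin was lower at an unadjusted p under 0.05, as 1 of the 8 genes, beside 2.78% of all genes tested. It had 8.83 to 12.6 FPKM in WT and 4.401, 7.47 and 7.38 in TG mice. Mbp, the most abundant, had 222 to 288 in WT and 196, 266 and 287 in TG mice. Since Enpp2 belongs to these cells as well, its level in TG1 stood beside a lower oligodendrocyte sum. Medians lay between -0.12 and 0.12 in all 6 libraries for hippocampal neurons (Neurod6 and Spink8), between -0.07 and 0.06 for astrocytes (Aldoc and Gfap), between -0.43 and 0.25 for thalamus and habenula (Prkcd and Rora) and between -0.32 and 0.23 for red blood cells (Hbb-bs). None of the 26 genes in these 4 lists passed an unadjusted p of 0.05, beside 3.13% of all genes higher and 2.78% lower. At those shares 26 genes may well hold none.

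**Figure D4:**
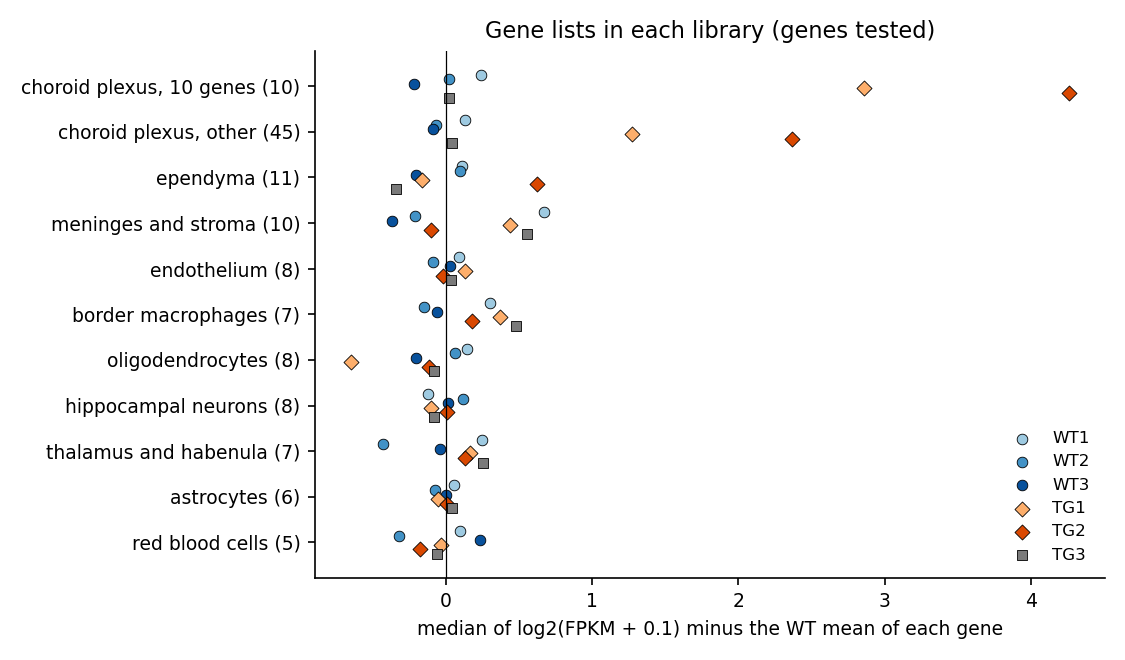
Median over the tested genes of each list (number in brackets) of log2(FPKM + 0.1) minus the WT mean of the gene, with 1 point for each library. For the 10 choroid plexus genes TG1 and TG2 lie at 2.86 and 4.26 and for the other 45 at 1.27 and 2.36, whereas in the other lists every library lies between -0.65 and 0.67.

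The genes whose profile over the 6 libraries was closest to the median profile of the 10 genes were sought among 13315 genes whose mean FPKM was 1 or more. That mean was taken over all 6 libraries, so low genes could enter through TG1 and TG2, and of the 10 closest genes only 1500015O10Rik and Ace had a WT mean above 1 FPKM. Likeness was the root mean square distance of the centred log2(FPKM + 0.1) over the 6 libraries. The 10 closest were Slc16a8 (0.19), Col8a1 (0.24), 1500015O10Rik (0.37), Slc4a5 (0.44), Trpv4 (0.45), Lbp (0.47), Ace (0.48), Cldn2 (0.48), Sulf1 (0.49) and Col8a2 (0.49). Of these, 8 were on the list of other choroid plexus genes, which was written with earlier results of these data known. 1500015O10Rik and Lbp were on no list used here, and which cells express them was not tested. 1500015O10Rik had an FPKM of 3.54, 1.65 and 1.78 in WT and 16.5, 48.9 and 1.60 in TG mice, and Lbp, the lipopolysaccharide binding protein, 1.20, 0.9996 and 0.774 in WT and 3.65, 9.12 and 0.665 in TG mice. The 10 genes themselves lay at 0.18 (Clic6) to 0.82 (Ttr) from their own median profile.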

How the data were processed

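Hippocampal RNA-seq of 3 WT and 3 TG mice was used. The authors counted reads per gene with HTSeq and computed FPKM from read count and gene length, and these FPKM are the deposited values, with 1 column for each library. The aligner and strand setting are not given in the sources used here, the submitters' processing notes name GRCm38 and mm10, and 53499 of 54409 identifiers found in a GRCm38 annotation (GENCODE) had the same coordinates. Trizol and a NEBNext kit are named in the methods, an RNeasy and a SMARTer kit in the labels.

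The reads behind each FPKM were recovered, since 100% of the values, multiplied by gene length, were whole multiples of a library's step (tolerance 0.05 reads). The 20952 genes whose mean FPKM reached 0.1 were tested on the scale log2(FPKM + 0.1) by limma (version 3.58.1, R 4.3.3), using lmFit and then eBayes with a trend, 3 TG against 3 WT libraries, two-sided, with no covariate and no block. Benjamini-Hochberg adjustment ran over all genes tested. No library was a copy of another. Ratios to Ttr were tested by exact permutation over the libraries, and intervals of the excess ratios came from Poisson variances of the reads on the log scale. No set test was run.

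The 10 genes and the marker lists were chosen with earlier results of these data known. Genes were named by a rule. It takes the 10 genes, the most abundant gene and the gene with the smallest p of each list, the other choroid plexus genes with an unadjusted p under 0.05 or among the 3 most abundant of their role, the 10 nearest profiles, Slc1a2 and Otx2os1. Slco1a5, Lmx1a, Slco1c1, Plvap, Mia and Slc13a4's WT values, and the genes overlapping Kcnj13 and Folr1, were singled out after their values were seen. Alternatives were pseudocounts of 1 and 0.01, a mean FPKM of 1 or no filter, equal library sums (TPM), eBayes without trend, limma-voom on the recovered reads, a replicate block, leaving out each library, other baselines and denominators, and, added after seeing the data, TG3 alone against WT. The fit was tested on simulated data. Scripts ran in Python 3.11.15 with numpy 2.4.6, pandas 2.3.3 and matplotlib 3.10.9. Promoter windows came from RefSeq (GRCm38.p6).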

Additional observations from a re-analysis of the deposited data

How the results depend on the processing

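With 3 mice a group, differences between the groups rest on TG1 and TG2, and the lowest WT values of Kcnj13 and Aqp1 rest on 5 reads each. The log2 differences of the 10 genes kept their direction in 140 of 140 values from the alternatives other than TG3 alone, and over 150 values the adjusted p of limma lay between 0.188 and 1. With TG3 alone against WT, 5 reversed: Ttr at -0.11, Folr1 at -0.58, Clic6 at -0.19, Sostdc1 at -0.059 and Otx2 at -0.015. The median of the 10 genes was then 0.021, that of the 45 other choroid plexus genes 0.042, that of the ependymal genes -0.34, the difference of the summed FPKM -0.051 (3.07 with all mice) and the median log2 difference of the ratios to Ttr 0.17. With all 3 TG mice this last median was -1.24, and -0.50 with the geometric mean of the other 9 genes as denominator.

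Of the 10 genes, 6 were higher at an unadjusted p under 0.05, 2 with eBayes without trend and 3 with voom. Among the alternatives, only the fit without TG3 has its share over all genes given here, so the other counts have no background. With TG3 alone the count was 0, but there the spread comes from the WT mice alone and 1 library is assumed to vary like them, so no count with TG3 alone can be set beside the others. Leaving out 1 library gave between 0 (without WT2, WT3, TG1 or TG2) and 10 (without TG3), with 1 without WT1. Of the 45 other choroid plexus genes, 20 were higher, 7 without trend and 0 with TG3 alone, and between 0 (without WT2) and 37 (without TG3) when 1 library was left out (7 without WT1, 2 without WT3, 2 without TG1, 4 without TG2). Genes past an adjusted p of 0.05 numbered 2, and 0 with a pseudocount of 1 or 0.01, no filter, TPM, voom or TG3 alone, 1 with a filter at 1, 9 without trend and 0 to 6 when 1 library was left out (6 without TG1). The endothelial median, 0.05 with all mice, lay between 0.016 (without TG1) and 0.15 (without WT1). At a filter of 1 no border macrophage median could be computed. The cause of these changes was not tested.

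Whether the replicate numbers pair the mice is not stated in the labels. Deviations of same-numbered libraries correlated at 0.0125, 0.0434 and 0.00314, and those of differently numbered libraries between -0.0274 and 0.0159. Such correlations cannot show whether mice of the same number shared a litter or a batch. With the replicate block all 10 genes were higher at an unadjusted p under 0.05, with 0 genes past the adjusted threshold and a median log2 difference of 2.41. The share of all genes at that unadjusted threshold under the block is not given here, so the count has no background.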
